A study of Mus musculus with 4 samples.

Results

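The genes described here are 35 genes of meiotic chromosome organization and recombination, taken by symbol from the 31053 genes of the count tables: *Stra8*, *Meioc*, *Rec8*, *Smc1b*, *Stag3*, *Rad21l*, *Sycp1*, *Sycp2*, *Sycp3*, *Syce1*, *Syce2*, *Syce3*, *Tex11*, *Tex12*, *Hormad1*, *Hormad2*, *Trip13*, *Spo11*, *Prdm9*, *Zcwpw1*, *Mei1*, *Mei4*, *M1ap*, *Dmc1*, *Brca2*, *Rad51ap2*, *Meiob*, *Spata22*, *Tex15*, *Msh4*, *Msh5*, *Mlh3*, *Ccnb1ip1*, *Rnf212* and *Terb1*. All 35 were found, and their levels were followed over germ cell stages and between genotypes.

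Single-cell RNA sequencing of the proximal testis, which holds the rete testis (RT) and adjacent seminiferous tubules, was performed at postnatal day 14 (P14) on C57BL/6 mice. There were 2 control libraries and 2 *Sox17*-cKO libraries, each made from the pooled testicular cells of 3 pups with 5000 cells targeted. In the *Sox17*-cKO mice, a Cre transgene under *Nr5a1* (SF1) control removes floxed *Sox17* alleles from somatic cells of the gonad. The sample records give the control genotype as SF1Cre, whereas the methods describe the controls as *Sox17* flox/flox littermates. Each library is 1 pool, so the pups within it cannot be separated, and each genotype has 2 replicates.

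Meiosis begins in spermatogonia under retinoic acid, when STRA8 and its partner switch on a program of genes before the last round of DNA replication. Meiotic cohesin then holds sister chromatids in loops along a protein axis, breaks are made at hotspots and repaired by strand exchange with the homologous chromosome, and the axes are joined by the central region of the synaptonemal complex, on which crossovers are made. At P14 the first wave of spermatogenesis has reached the long prophase of meiosis, so that spermatogonia and early spermatocytes lie side by side in the tubules.

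The libraries held between 9388 and 13364 barcodes, and 22567 cells with 1000 to 4500 detected genes were kept, with 33649565 to 42011650 UMIs per library. The germ-like class, named from markers that include none of the 35 genes, held 2575, 1264, 2149 and 1180 cells. Values of the 4 libraries are listed throughout in this order: the first control, the second control, and the *Sox17*-cKO libraries of replicate 1 and 2. Clustering without the 35 genes gave 8 stage classes, which held 6097 of the 7168 germ-like cells: undifferentiated (stage 1), early differentiating (2), early/late differentiating (3), late differentiating (4), late differentiating/preleptotene (5), preleptotene (6), preleptotene/leptotene-zygotene (7) and leptotene-zygotene/pachytene (8). The other 1071 cells fell into 2 clusters of few unique molecular identifiers (UMIs) that stayed unnamed. The stage names rest on marker lists. The preleptotene list holds other meiotic genes, such as *Gm4969* (Meiosin), *Gm960* (Top6bl) and *Ankrd31*, and the leptotene and zygotene list holds *Ccdc36* (Iho1) and *Majin*. A rise of the 35 genes into classes named by such genes is therefore partly built in. Some lists did not separate neighbouring stages. The early differentiating list summed to 1022 CPM (UMIs scaled to the total of the summed cells) in stage 1 and 1011 CPM in stage 2, and was higher in stage 1 in both replicate 2 libraries. The preleptotene list was higher in stage 7 (1580 CPM) than in stage 6, the class named for it (1295 CPM). The summed level of the undifferentiated list was 920 CPM in stage 1 and at most 95.3 CPM in any later stage, and that of the pachytene list was 1749 CPM in stage 8 and at most 498 CPM before it. The upper limit of 4500 genes removed 1722 to 2108 barcodes per library, and when it was lifted a separate pachytene class of 284 cells appeared. The gene coordinates given below are those of GENCODE vM21 (GRCm38), which held 31011 of the 31053 identifiers and all of the 35 genes. Pairs of libraries shared 20 to 43 cell barcodes. *Sox17*, the targeted gene, was read from 94, 180, 11 and 23 UMIs in RT-like cells, or 356, 312, 45.5 and 34.6 CPM, lower in both *Sox17*-cKO libraries than in both controls, and was almost absent from germ-like cells (1, 9, 0 and 2 UMIs). Endothelial-like cells, 8 to 26 per library, also held less of it in the *Sox17*-cKO libraries (33, 62, 10 and 18 UMIs, or 508, 344, 102 and 101 CPM). The paper, however, describes the decrease in its single-cell data as specific to the RT cluster. By in situ hybridization at 4 weeks of age it reports that *Sox17* was kept in the interstitial vasculature. The endothelial difference was not tested. Whether the counted 3' ends lie inside the deleted part is not known from the sources used here.

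Upstream of the RefSeq start sites, 3 short motifs were searched on both strands: the E2F core TCCCGC, the E-box CACGTG and the STRA8 motif CNCCTCAG. RefSeq windows of 250 bases (GRCm38.p6) were found for 31 of the 35 genes, 37 windows in all, with more than 1 window for 6 genes, and 22 of the windows reach into the gene as GENCODE draws it. The E2F core was present in a window of 17 of the 31 genes (54.8%), against 18.8% of 27025 genes with such a window. The E-box was present for 6 of 31 (19.4%, against 6.86%) and the STRA8 motif for 5 of 31 (16.1%, against 7.39%). The sequences are printed for 3 genes whose levels are described below, to show how the matches lie. They were picked after the matches were known, and the capitals mark matches on either strand. They are *Rad51ap2* (chr12:11455805-11456054, plus strand), *Sycp3* (chr10:88459337-88459586, plus strand, its last 18 bases inside the GENCODE gene) and *Prdm9* (chr17:15564355-15564604, minus strand), written along the strand of the gene:
Rad51ap2: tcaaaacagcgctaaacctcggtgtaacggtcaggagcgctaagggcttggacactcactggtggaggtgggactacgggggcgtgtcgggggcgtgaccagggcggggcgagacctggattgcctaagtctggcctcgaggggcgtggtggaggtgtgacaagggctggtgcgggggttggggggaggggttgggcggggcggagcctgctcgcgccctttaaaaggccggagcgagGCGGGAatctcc
Sycp3: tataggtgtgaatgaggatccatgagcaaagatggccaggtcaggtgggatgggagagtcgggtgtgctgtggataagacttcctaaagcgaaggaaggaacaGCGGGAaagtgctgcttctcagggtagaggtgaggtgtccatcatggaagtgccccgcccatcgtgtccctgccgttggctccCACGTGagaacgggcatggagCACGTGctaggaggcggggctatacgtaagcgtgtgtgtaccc
Prdm9: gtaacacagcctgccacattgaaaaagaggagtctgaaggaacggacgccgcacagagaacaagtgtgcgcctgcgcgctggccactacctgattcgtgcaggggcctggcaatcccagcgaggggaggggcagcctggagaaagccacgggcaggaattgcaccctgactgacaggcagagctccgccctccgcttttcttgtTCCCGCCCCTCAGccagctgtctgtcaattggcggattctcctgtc
The *Sycp3* window held 1 E2F core and 2 E-boxes. In the *Prdm9* window an E2F core ran into a STRA8 motif, with the C between them belonging to both. A match is a run of letters and not a measured binding site.

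The 35 genes came on in a graded order and not all at once. The step that moved most of them was from stage 5 to stage 6, the entry into the preleptotene class. At this step 29 of the 34 genes tested rose and 3 fell (edgeR quasi-likelihood test, Benjamini-Hochberg adjusted p under 0.05), against 24.2% of 11308 genes tested that rose and 23.9% that fell. From stage 6 to 7, 23 rose and 6 fell (26.7% and 28.1% of all genes), and from stage 7 to 8 the direction turned, with 6 higher and 23 lower (26.4% and 26% of all genes). *Spata22*, at no more than 41 UMIs in any stage, did not pass the filter on low counts in the stage fit and was not tested there. Its annotation overlaps another gene on the same strand, as do those of *Dmc1*, *Mlh3*, *Ccnb1ip1*, *Mei4*, *Brca2*, *Trip13* and *M1ap*.

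The earlier steps moved fewer of them. From stage 1 to 2, 15 rose and 4 fell (21.6% and 24.3% of all genes), and from stage 2 to 3, 10 rose and 2 fell (20.8% and 20.5%). From stage 3 to 4, 12 rose and 1 fell (17.5% and 16.2%), and from stage 4 to 5, 8 rose and 1 fell (12.2% and 11.8%). Without integration of the libraries the clusters were drawn differently, and 0 of the 35 genes passed at the step from 3 to 4. The median log2 change of the 34 genes was 0.27, 0.18, 0.31, 0.12, 1.38, 0.53 and -1.12 at the 7 steps in turn, whereas that of all genes lay between -0.03 and 0.01. Compared directly, stage 8 was higher than stage 1 for 23 genes and lower for 6 (36% and 39.5% of all genes). Among 27 other meiotic genes, such as *Hfm1* and *Ythdc2*, 18 rose and 0 fell from stage 5 to 6, 17 rose and 7 fell from stage 6 to 7, and 6 rose and 16 fell from stage 7 to 8. The 27 genes were not left out of the clustering as the 35 were, so their changes between its classes are not independent support. The stages were cut from the other genes of the same cells, so these tests compare clusters of cells and not cells sorted beforehand.

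**Figure D1:**
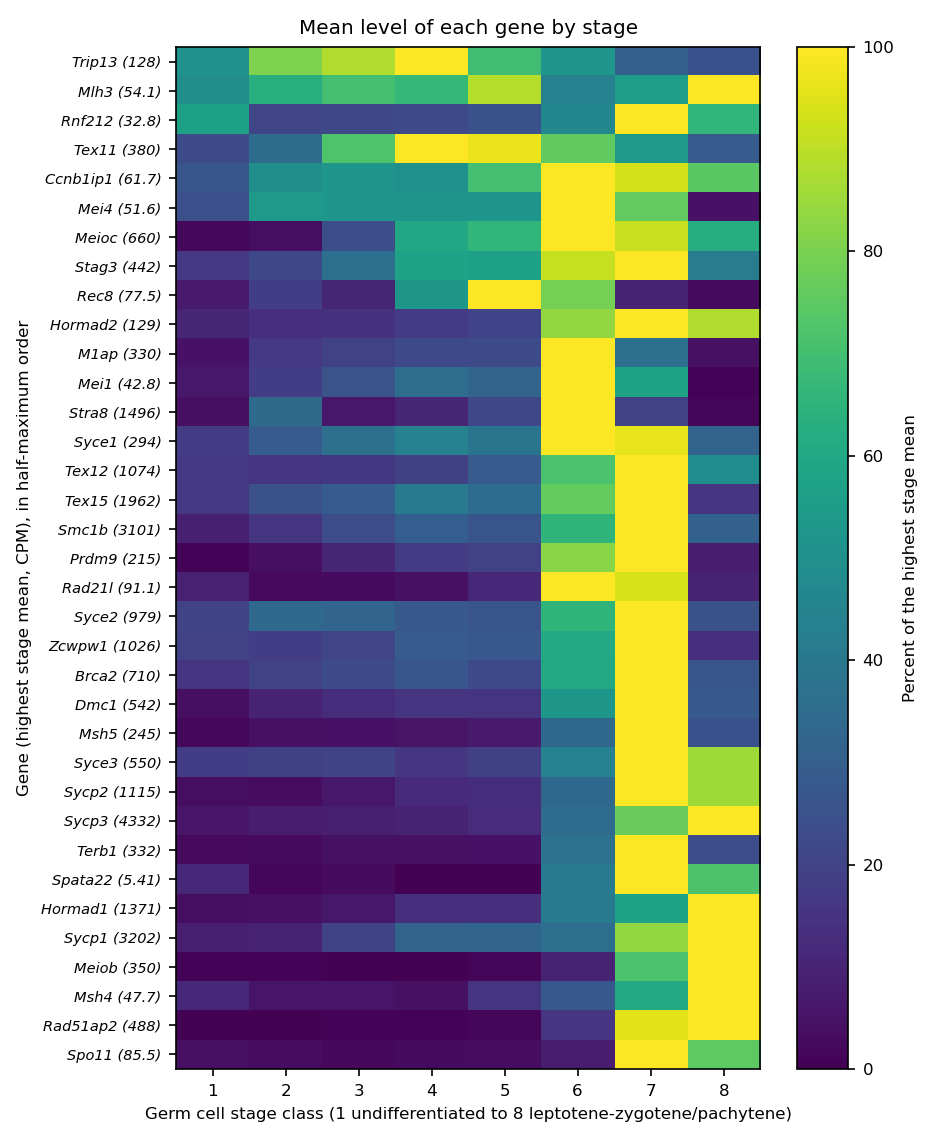
Mean level over the 4 libraries of the 35 genes (rows, in half-maximum order, with the highest stage mean in CPM) in the 8 stage classes (columns), coloured as percent of the highest stage mean of the gene. Of the 35 genes, 25 have their highest mean in stage 6 or 7 and 7 in stage 8.

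The onset stage, defined as the first stage whose mean reached 20% of the highest stage mean of the gene, fell in stages 1 to 3 for 18 genes and in stage 6 or 7 for 14. The split depends on the percent chosen: it was 26 against 5 genes at 10%, and 6 against 26 at 50%. Because the cut between stages could set this order, the 6097 cells of the named stages were also ordered by diffusion pseudotime without the 35 genes and divided into 10 bins. The position of the first bin at 50% of the highest level, the half-maximum position, was taken in each library, as a percentile of the ordered cells. It was 65 to 85, as a mean over libraries, for 26 genes and lower for 9. The 26 include *Spata22*, with only 30, 13, 37 and 8 UMIs in all germ-like cells, so its place in the order is uncertain. In 19 genes the position was identical in all 4 libraries, and in 28 it differed by no more than 1 bin. The ordering was made once over the cells of all 4 libraries, from the same integrated components as the clusters. Agreement between libraries is therefore partly built in, and the ordering is no independent check of the stages. *Trip13* was earliest at 10 ± 5.77 (SD, n = 4), and *Spo11*, *Meiob*, *Rad51ap2* and *Msh4* had the highest mean, at 85 in every library. Genes within 1 bin of each other do not differ beyond the resolution of this order.

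**Figure D2:**
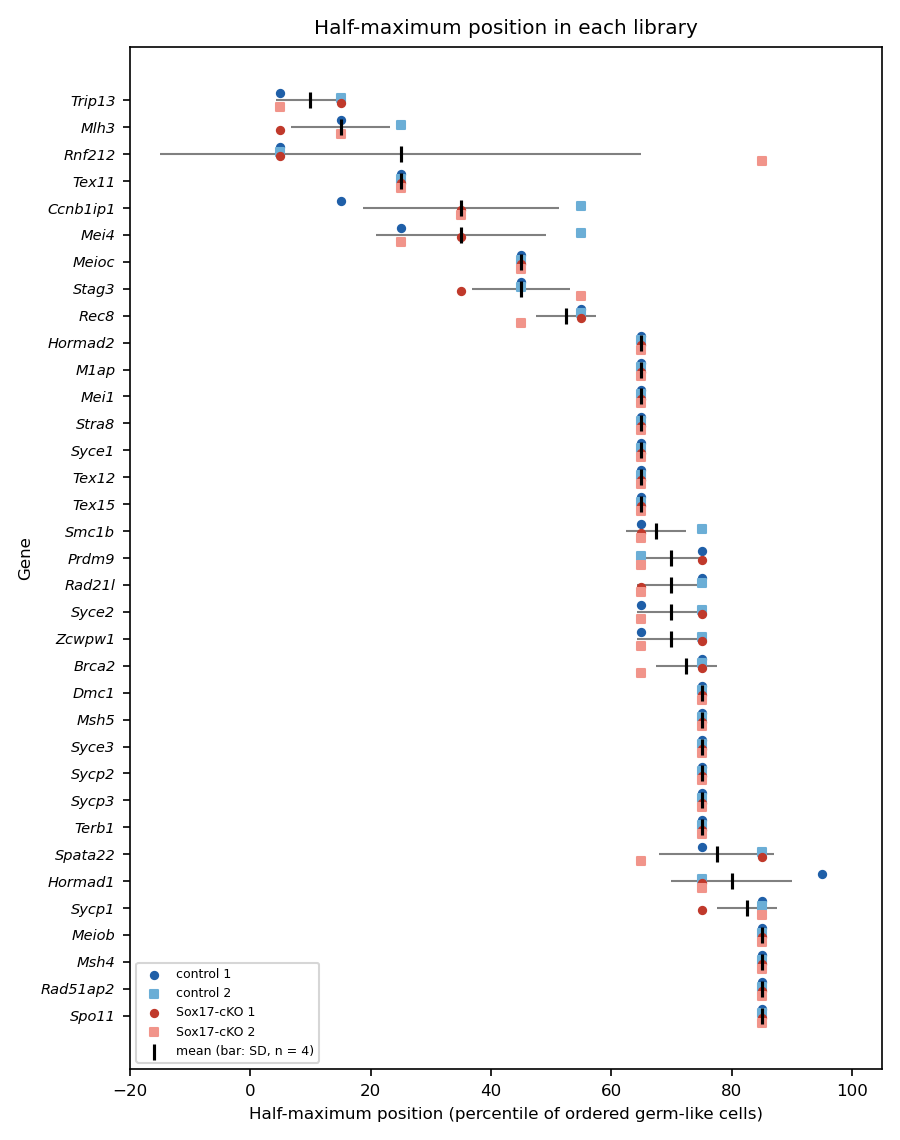
Half-maximum position (horizontal axis, percentile of the ordered cells of the named stages) of each gene in the 4 libraries (coloured points), with the mean and SD (black ticks and grey bars, n = 4). The 26 genes with means of 65 to 85 form the lower block, and *Rnf212* has the widest spread, with 1 library at 85 and the other 3 at 5.

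The entry genes behaved unlike each other. *Stra8* (chr6:34920163-34939344), the retinoic acid-induced gene that starts the meiotic program, had a first peak in stage 2, with 681, 296, 670.2 and 429 CPM, and then 121, 66.6, 92.6 and 94.8 CPM in stage 3. In stage 6 it reached 1592, 1467, 1518 and 1405 CPM, and in stage 8 it was down to 17.5, 10.8, 48.3 and 12.4 CPM. In Sertoli-like cells *Stra8* was 47.9, 9.49, 60.8 and 11.7 CPM. Its stage 8 level lay below this in both replicate 1 libraries and slightly above it in both replicate 2 libraries. Both peaks were present in every library, and the libraries of stage 6 lay above those of all other stages. The log2 fold change was 2.92 ± 0.17 (SE) into stage 2 (edgeR, adjusted p = 5.43e-19), -2.50 ± 0.15 into stage 3 (adjusted p = 8.98e-18), 2.28 ± 0.14 into stage 6 (adjusted p = 8.61e-19) and -3.68 ± 0.23 into stage 8 (adjusted p = 5.03e-19). *Meioc* (chr11:102663716-102682237), whose product keeps the meiotic program going, had no early peak. It measured 18.9, 27.7, 26.7 and 22.1 CPM in stage 2, 141, 189, 185 and 120.3 CPM in stage 3 and 689, 613, 748 and 591 CPM in stage 6. In Sertoli-like cells *Meioc* was 32, 8.51, 39.6 and 14.5 CPM. This was above its stage 2 level in both replicate 1 libraries and below it in both replicate 2 libraries. Its rise into stage 3 was 2.81 ± 0.14 on the log2 scale (adjusted p = 8.35e-22), with all libraries of stage 3 above all libraries of stage 2, and a further rise of 1.30 ± 0.09 followed into stage 4 (adjusted p = 2.15e-16).

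The 4 meiotic cohesin genes had half-maximum positions of 45 and 52.5 (*Stag3* and *Rec8*) and of 67.5 and 70 (*Smc1b* and *Rad21l*), within 1 bin of each other in each pair. *Rec8* (chr14:55618037-55625395), the kleisin subunit that holds sister chromatids together, was highest in stage 5 at 67.9, 73.8, 52.7 and 116 CPM, after 6.72, 11.2, 4.57 and 9.43 CPM in stage 3. *Sox17*-cKO 2 was the highest library in stages 4 to 6, and every library of stage 5 lay above every library of stage 3. *Rec8* rose into stage 4 by 2.26 ± 0.24 (adjusted p = 2.9e-10) and into stage 5 by 1.01 ± 0.19 (adjusted p = 6e-05), and changed by -2.92 ± 0.25 into stage 7 (adjusted p = 4.14e-14), where it measured 10.6, 3.68, 8.09 and 8.18 CPM. *Rad21l* (chr2:151645404-151668533), the kleisin of early prophase, was 13.8, 7.49, 11.7 and 7.58 CPM in stage 5 and 92.3, 79.8, 126 and 66.1 CPM in stage 6. The libraries of the 2 stages did not overlap, and the log2 change was 3.28 ± 0.18 (adjusted p = 1.74e-20). It returned to 8.48, 8.07, 12.5 and 6.19 CPM in stage 8, a change of -3.26 ± 0.20 (adjusted p = 9.78e-20). In stage 1 *Rad21l* was 7.68, 5.51, 17.1 and 2.63 CPM, above its level in stage 2 in every library although the ranges of the 2 stages overlapped (-1.99 ± 0.36 on the log2 scale, adjusted p = 8.01e-06). *Stag3* (chr5:138280240-138312393), which binds the cohesin ring, had the lowest mean half-maximum position of the group, 45 ± 8.17 (SD, n = 4). It came after *Rec8* in *Sox17*-cKO 2, so the 2 are not told apart. *Stag3* measured 262, 249.8, 285 and 220.4 CPM in stage 4. *Smc1b*, which encodes the meiotic SMC subunit, climbed from a mean of 278 CPM in stage 1 to 3101 CPM in stage 7. All 4 cohesin genes fell from stage 7 to stage 8, where 26% of all genes fell.

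Among the axis and checkpoint genes, *Trip13* (chr13:73911347-73937784), the ATPase that removes HORMA proteins from the axis, was the earliest. It was highest in stage 4 at 130.4, 126, 153 and 103 CPM and lowest in stage 8 at 30.4, 31, 43.9 and 24.8 CPM, with no overlap. It fell at steps 4, 5 and 6, by log2 changes of -0.49, -0.37 and -0.69 (edgeR, adjusted p = 0.00055, 0.0078 and 1.23e-05). *Hormad1* (chr3:95559677-95587671), an axis protein that marks unpaired chromosomes, was 92.5, 99.4, 106 and 58.2 CPM in stage 3, 191, 183, 185 and 174 CPM in stage 4, 522, 634, 595 and 479.6 CPM in stage 6 and 1719, 1377, 1458 and 932 CPM in stage 8. It was 1 of the 6 genes that rose at the last step, by 0.80 ± 0.10 (adjusted p = 7.49e-10), and its half-maximum position was 95 in control 1 and 75 in the other 3 libraries. *Sycp2*, which with *Sycp3* forms the lateral axis, was 78.8, 57.8, 85.6 and 64.9 CPM in stage 3 and 159, 105, 165 and 119 CPM in stage 4, and rose further into stage 7 to 1170.0, 1059.8, 1310.0 and 922 CPM. *Sycp3* had a mean of 4332 ± 311 CPM (SD, n = 4) in stage 8, up from 558 ± 32 CPM in stage 5, and rose at steps 5, 6 and 7. *Hormad2*, the partner of *Hormad1*, rose into stage 6 by 2.07 ± 0.14 (adjusted p = 9.95e-18) and by less, 0.28 ± 0.10, into stage 7 (adjusted p = 0.0165).

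**Figure D3:**
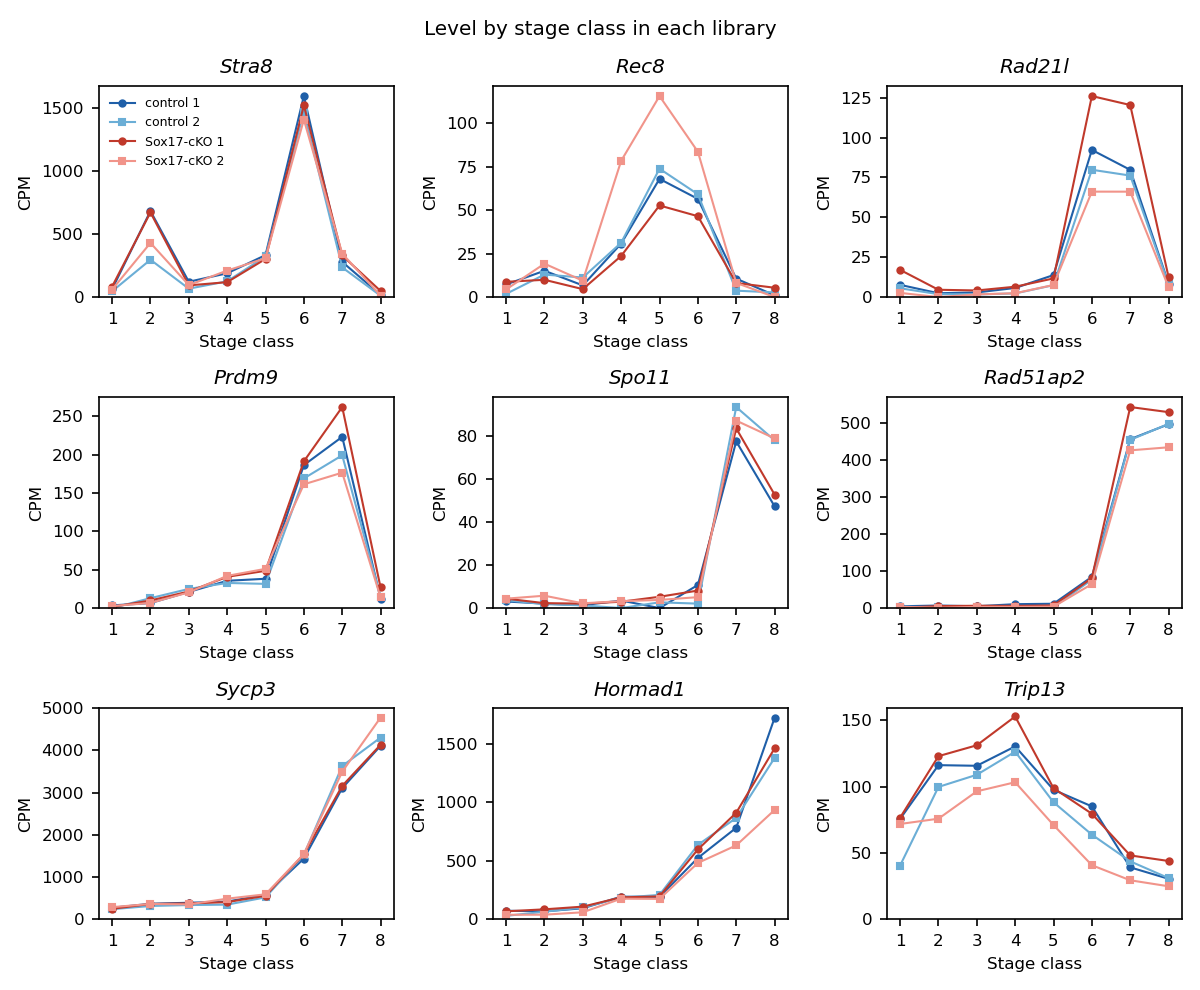
Level in CPM (vertical axis, linear, each panel with its own range) of 9 genes over the 8 stage classes (horizontal axis), with 1 line per library. *Stra8* has peaks in stages 2 and 6 in all 4 libraries, *Rad21l* and *Prdm9* are back to low values in stage 8, *Sycp3* and *Hormad1* are highest there, and *Trip13* declines from stage 4.

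The central region genes, whose products zip paired axes together, had half-maximum positions from 65 to 82.5, apart from *Tex11*, which was grouped with them. *Tex11* (chrX:100838648-101059667), an X-linked gene whose product acts with crossover intermediates at synapsis, came first, with a half-maximum position of 25 in every library. It was 137, 166, 109 and 125 CPM in stage 2 and 261, 276, 290.3 and 275 CPM in stage 3 (log2 change 1.03 ± 0.09, adjusted p = 4.09e-13), then fell at each of the steps 5 to 7, to 85.3, 126, 105 and 122 CPM in stage 8. *Sycp1* (chr3:102818499-102936100), the transverse filament, had the highest mean position, 82.5 ± 5.0 (SD, n = 4), within 1 bin of *Syce3*. It was read from the start, at 284, 204, 330.2 and 257 CPM in stage 1, against 140, 29.8, 161 and 61 CPM in Sertoli-like cells. It rose at 5 of the 7 steps, most of all by 1.0 ± 0.08 into stage 3 (adjusted p = 4.07e-14) and by 1.26 ± 0.07 into stage 7 (adjusted p = 1.71e-19), from 1119.9, 1171, 1239 and 1089 CPM in stage 6 to 2649, 2845, 2762 and 2453 CPM in stage 7. The other rises were 0.61 ± 0.07 into stage 4, 0.20 ± 0.07 into stage 6 and 0.28 ± 0.07 into stage 8. *Tex12*, a central element protein, was 196, 184, 198 and 244 CPM in stage 4 and 258, 310.1, 321 and 344 CPM in stage 5, without overlap (log2 change 0.61 ± 0.10, adjusted p = 3.19e-06). *Syce1*, *Syce2* and *Syce3*, the other central element genes, all rose into stage 6, and *Syce2* and *Syce3* rose again into stage 7. *Syce3* was 744, 393, 733 and 331 CPM in stage 7, with both replicate 1 libraries above both replicate 2 libraries, as in every other stage. At the last step *Syce3* did not pass the test, *Sycp1* rose, and *Syce1*, *Syce2*, *Tex12* and *Tex11* fell.

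The 6 genes grouped under break formation and hotspots, with *M1ap* among them, all fell at the last step, where 26% of all genes fell. *Mei4* (chr9:81863670-82206007), which promotes break formation, was earliest, at 35 ± 14.1 (SD, n = 4), and *Spo11* (chr2:172977700-172993576), which makes the breaks, was latest, at 85. *Spo11* was 10.8, 2.07, 8.15 and 5.09 CPM in stage 6 and 77.6, 93.5, 83.6 and 87.2 CPM in stage 7, without overlap and with the largest change among the 34 genes at that step, 3.83 ± 0.24 (adjusted p = 1.3e-18). Its level rested on 40 UMIs in stage 6 and 631 in stage 7 over the 4 libraries. *Prdm9* (chr17:15543079-15564354), the methyltransferase that places hotspots, began to rise earlier, from 3.51, 0, 1.46 and 2.63 CPM in stage 1 to 21, 25, 21.6 and 20.5 CPM in stage 3, 35.6, 32.7, 40.8 and 42 CPM in stage 4 and 186, 169, 191 and 161 CPM in stage 6. *Spo11* reached 20% of its highest stage mean in stage 7, and *Prdm9* did so in stage 6. Its levels in stage 8 were 12.5, 14.8, 26.9 and 13.9 CPM, a log2 change of -3.67 ± 0.16 from stage 7 (adjusted p = 2.97e-25). *Zcwpw1*, a reader of the marks that PRDM9 writes, was present from stage 1 at a mean of 197 CPM and was highest in stage 7 at 1026 CPM.

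*M1ap*, needed for progression through prophase, had levels of 17.8, 12.9, 10.7 and 21 CPM in stage 1 and 53, 66.5, 47.4 and 53.7 CPM in stage 2 (log2 change 1.57 ± 0.16, adjusted p = 3.38e-11), and then of 305, 363, 288 and 365 CPM in stage 6. *Mei1*, required for breaks, was 45.7, 47.7, 47.9 and 29.8 CPM in stage 6, 22.9, 26.3, 28.8 and 20.4 CPM in stage 7 and 0, 0, 1.79 and 0 CPM in stage 8. With 2 UMIs left in stage 8, its fitted change of -5.63 ± 0.48 (adjusted p = 1.53e-14) depends on the prior count of the fit and is no bound. *Mei4* went from 24, 53.1, 34.2 and 45.7 CPM in stage 7 to 2.99, 5.38, 0 and 1.55 CPM in stage 8 (log2 change -3.87 ± 0.33, adjusted p = 2.86e-14), on 11 UMIs in stage 8.

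The strand exchange genes that could be tested, 5 of 6, rose together at both steps 5 and 6, where 24.2% and 26.7% of all genes rose. *Rad51ap2* (chr12:11456079-11462928) had the largest rise into stage 6: it was 11.7, 3.21, 7.02 and 3.79 CPM in stage 5, 84.2, 76.7, 81 and 64.7 CPM in stage 6 and 455, 453, 542 and 425 CPM in stage 7. The groups of libraries did not overlap, and the log2 changes were 3.72 ± 0.24 (adjusted p = 4.82e-18) and 2.66 ± 0.12 (adjusted p = 5.06e-24). *Meiob* (chr17:24804289-24839788), a single-stranded DNA-binding partner of SPATA22, also rose at both steps, from 7.43, 0.535, 5.85 and 4.74 CPM in stage 5 to 24.2, 36.8, 24 and 47.2 CPM in stage 6 and 200.3, 288, 199 and 316 CPM in stage 7, and its changes were 2.99 ± 0.32 and 2.98 ± 0.14 (adjusted p = 3.37e-11 and 1.56e-22). It rose again into stage 8 by 0.46 ± 0.11 (adjusted p = 0.000343). *Dmc1*, the meiotic recombinase, was already at a mean of 71 CPM in stage 3 and peaked at 542 CPM in stage 7. *Tex15*, needed for loading recombinases, had the lowest mean position of the group, 65 in each library, within 1 bin of *Brca2* and *Dmc1*. It was at 1713, 1126, 1985 and 1182 CPM in stage 6 and 297, 261, 365 and 265 CPM in stage 8. *Brca2*, which loads recombinase on DNA, was 175, 120.3, 211 and 116 CPM in stage 5 and 478, 341, 512 and 386 CPM in stage 6.

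The crossover genes had half-maximum positions from 15 to 85. *Mlh3* (chr12:85234520-85270599), the endonuclease subunit of late crossover resolution, was detected from the start, with 30.9, 25.7, 36.1 and 14 CPM in stage 1 and 60.8, 51.1, 68.9 and 35.6 CPM in stage 8. The stage 1 value of *Sox17*-cKO 2 lay below the Sertoli-like and interstitial-like levels of that library, 18.2 and 15.4 CPM. The lowest mean of *Mlh3* was in stage 6, at 31.4, 19.2, 27.8 and 16 CPM, after a change of -1.03 ± 0.15 on the log2 scale (adjusted p = 1.26e-07), and it rose at both later steps. *Msh4* (chr3:153857149-153906138), which encodes a subunit of a complex that stabilizes recombination intermediates, was 4.39, 0, 1.77 and 2.42 CPM in stage 4 and 2.12, 4.81, 8.78 and 13.3 CPM in stage 5, a log2 change of 1.59 ± 0.45 (adjusted p = 0.00677) with 3 of 4 libraries higher and the ranges overlapping, and the call was lost without either *Sox17*-cKO library (adjusted p = 0.102 and 0.0776). Its level went on to 50.9, 49.8, 52.8 and 37.2 CPM in stage 8. *Msh5*, its partner, was 18, 12.8, 14 and 25.6 CPM in stage 5 and 60, 92.3, 69.5 and 108 CPM in stage 6, without overlap (log2 change 2.34 ± 0.15, adjusted p = 5.35e-18), and fell into stage 8 while *Msh4* rose. *Rnf212*, a SUMO ligase of crossover designation, was 17.3, 22, 20.5 and 14.9 CPM in stage 1 and 7.57, 5.54, 7.64 and 6.72 CPM in stage 2, a change of -1.47 ± 0.27 (adjusted p = 9.74e-06), before a rise to 18.4, 38.4, 30.1 and 44.3 CPM in stage 7, which in control 1 was close to the stage 1 level. *Ccnb1ip1*, the ligase HEI10, had 36.1, 25, 39 and 28.3 CPM in stage 3 and 59.1, 58.1, 73.8 and 56 CPM in stage 6.

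*Terb1* (chr8:104446719-104509910), which tethers telomeres to the nuclear envelope, also rose at steps 5 and 6. It was 21.2, 16.6, 21.6 and 7.58 CPM in stage 5, 102, 138, 125 and 137 CPM in stage 6 and 288, 399, 302 and 339 CPM in stage 7, with no overlap (log2 change 2.93 ± 0.16 into stage 6, adjusted p = 9.83e-21), and then 70.8, 91.5, 64.5 and 86.7 CPM in stage 8.

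With no upper limit on detected genes, a class named pachytene was found apart. It held 284 cells, was led by the pachytene list and shared leading genes such as *Fabp9*, *Pdcl2* and *Meig1* with stage 8, which also scored best for that list. These data do not show that it comes after stage 8. In it *Sycp3* was 2767, 3166, 2996 and 4449 CPM, against 4202, 4316, 3974 and 4443 CPM in the leptotene-zygotene/pachytene class of that clustering, so that it was lower in 3 of the 4 libraries. *Hormad1* was 1445, 1421, 1530.2 and 1061 CPM, against 1467, 1363, 1347 and 846 CPM, and *Mlh3* was 104, 75.2, 147 and 35.1 CPM. The mean of *Mlh3* was 51.8 CPM in the leptotene-zygotene/pachytene class and 90.4 CPM in the pachytene class, and those of *Rad51ap2* were 535 CPM and 229 CPM. *Mei1* had means of 1.20 CPM and 2.26 CPM, and *Mei4* of 3.04 CPM and 2.54 CPM.

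Levels outside the germ line gave a background for low values. It was set beside the stage values of only a few genes, and neither the stage levels nor the onset stages were corrected for it. In Sertoli-like cells, the somatic cells of the tubule, 33 of the 34 genes tested were lower than in germ-like cells (edgeR, library as a block), against 41.5% of 13560 genes, and 1 was higher, against 37.7%. The Sertoli-like level, as a percent of the germ-like level, had a median over the 35 genes of 15.7, 2.86, 12.6 and 5.26%. The replicate 1 libraries thus held more of these RNAs in Sertoli-like barcodes than the replicate 2 libraries. In interstitial-like cells the median was 5.95% of the germ-like level. In turn, the 7 Sertoli markers summed to 25.1 to 510 CPM in the germ cell stages, against 3113 to 3287 CPM in Sertoli-like cells, and were highest in the replicate 1 libraries at every stage. The 9 interstitial markers went the other way: they summed to 33.4 to 88.6 CPM in the stages of the replicate 1 libraries and to 186 to 355 CPM in those of the replicate 2 libraries. The part of both lists in the stage profiles was not tested.

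The gene that was higher in Sertoli-like cells was *Rec8*. It was 25.5, 30.3, 35.2 and 38.7 CPM in Sertoli-like cells and 15.8, 29.5, 20.1 and 38.5 CPM in germ-like cells, higher in the Sertoli-like sum in every library, at 162% and 175% of the germ-like level in the replicate 1 and 102% and 101% in the replicate 2 libraries, with a log2 difference of -0.73 ± 0.16 for germ-like against Sertoli-like (adjusted p = 0.0045). In RT-like cells it was 18.9, 31.2, 16.5 and 57.2 CPM and in interstitial-like cells 2.26, 0.919, 4.39 and 2.20 CPM. *Mlh3* also stood above the other genes, at 19.2, 9.82, 24.3 and 18.2 CPM in Sertoli-like, 22.1, 15.5, 24.3 and 15.4 CPM in interstitial-like and 40.7, 29.1, 46.8 and 26.1 CPM in germ-like cells. The other genes whose Sertoli-like mean exceeded 10% of the germ-like mean were *Trip13* (15.9%), *Syce3* (15.4%), *Msh4* (14.8%), *Brca2* (13%) and *Ccnb1ip1* (12.2%), and the highest of the other 28 was 9.94%.

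**Figure D4:**
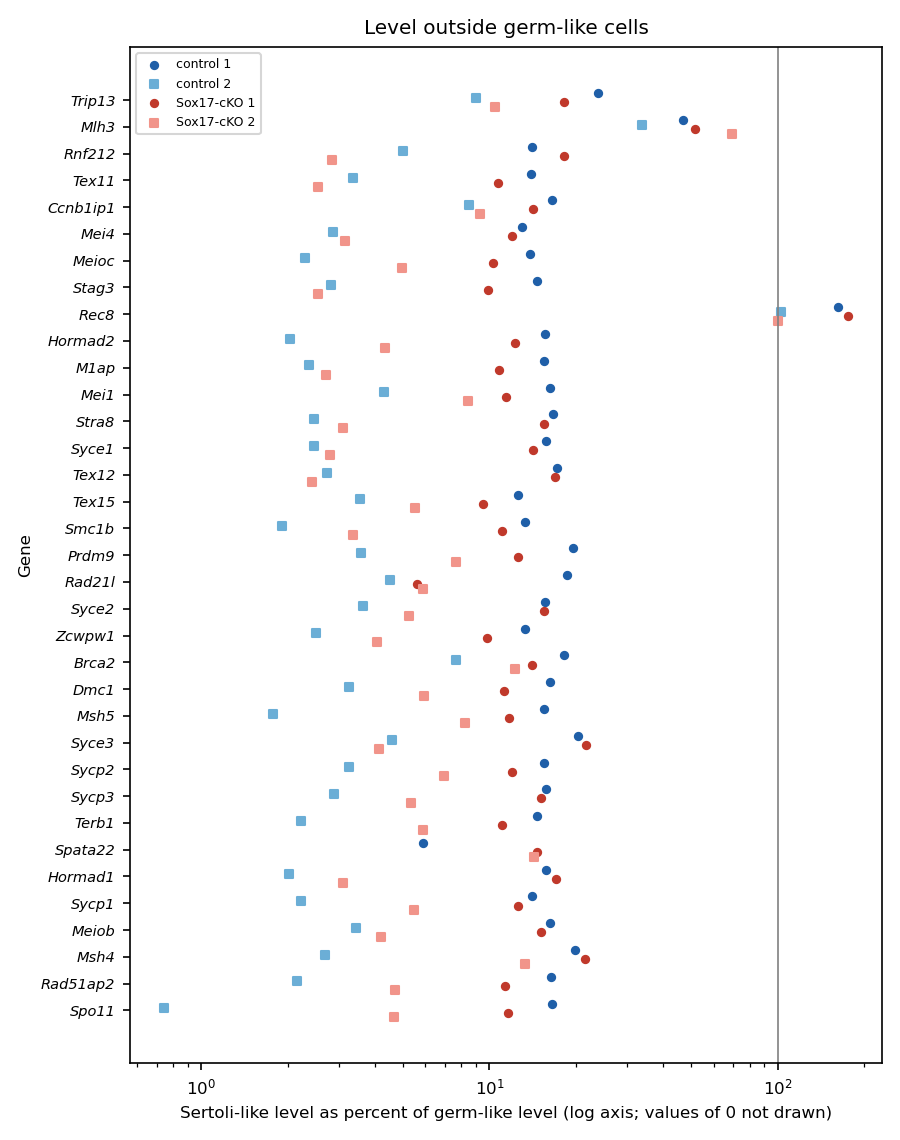
Level of each gene in Sertoli-like cells as a percent of its level in germ-like cells (horizontal axis, log scale) in the 4 libraries; the vertical line marks equal levels. *Rec8* lies at or beyond equality and *Mlh3* between 33.7% and 69.7%, and for most genes the replicate 1 libraries lie to the right of the replicate 2 libraries.

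Between the genotypes, none of the 35 genes passed the threshold in all germ-like cells (edgeR, 2 libraries against 2, 0 of 14119 genes called, 0%, and 24 genes with an unadjusted p under 0.05, none of them among the 35). A well-scaled test without any difference would put a share of about 0.05 of the genes there. The fit gave far fewer, so the 0 calls do not show equal levels. With the replicate number as a block, 169 of 14119 genes had an unadjusted p under 0.05 and 0 were called. DESeq2 also called 0 of the 35. The smallest unadjusted p was that of *Rad21l*, 0.356, and all 35 adjusted p were 1 in this test across all genes. Among the 35, 0 had both *Sox17*-cKO libraries above or below both controls, where 7.54% and 4.53% of all genes did. *Rad21l* was 16.3, 28.9, 41 and 20.9 CPM, a log2 difference (*Sox17*-cKO minus control) of 0.40 ± 0.41 with a 95% interval of -0.55 to 1.35, which turned to -0.11 when *Sox17*-cKO 1 was left out. *Brca2* was 225, 247, 335 and 239.7 CPM, with 0.24 ± 0.26 (-0.37 to 0.84), and *Hormad1* 348, 421, 407 and 276 CPM, with -0.22 ± 0.28 (-0.87 to 0.43). In each of the 3 genes the groups overlapped. Over the 35 genes the estimates ran from -0.22 to 0.40 with a median of 0.05, and the outermost interval bounds were -1.26 and 1.81, so that the intervals of some genes hold a 2-fold difference. At this size, 9% of genes simulated with a 2-fold change and 74% of those with a 4-fold change were recovered.

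The pairs of equal replicate number went opposite ways. In 32 of the 35 genes *Sox17*-cKO 1 exceeded control 1 while *Sox17*-cKO 2 was below control 2, as in 33.5% of 14090 genes with UMIs in all 4 libraries (61.6% in either order), and in the others, *Rec8*, *Msh5* and *Meiob*, the *Sox17*-cKO library was higher in both pairs. The replicate number coincides with the Cell Ranger version of the tables, 6.0.2 for replicate 1 and 6.1.2 for replicate 2. The share of germ-like cells in stages 5 to 8 went the same way within each number: it was 31.3, 58.9, 45.1 and 50.8%. Within stages the pairs went opposite ways, in either order, for 15 of 27 genes in stage 1 (46.9% of all genes), 16 of 28 in stage 2 (49.1%), 20 of 30 in stage 3 (53.8%), 14 of 29 in stage 4 (49.7%), 17 of 31 in stage 5 (50.1%), 21 of 34 in stage 6 (48.9%), 26 of 35 in stage 7 (53%) and 12 of 30 in stage 8 (49.4%).

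**Figure D5:**
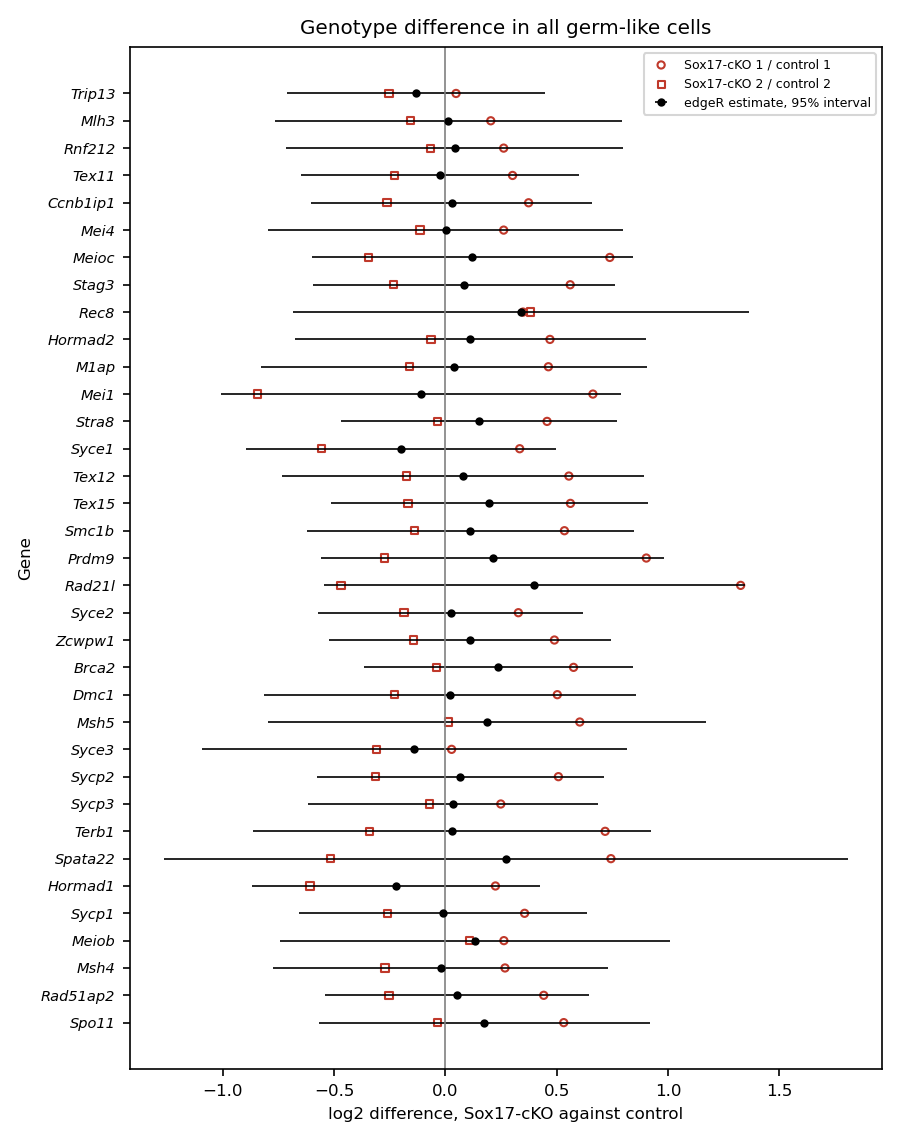
Log2 difference between *Sox17*-cKO and control in all germ-like cells for each gene (horizontal axis): the edgeR estimate with its 95% interval (black), and the ratio within each replicate number (red circles for 1, red squares for 2). All 35 intervals include 0, and the 2 ratios lie on opposite sides of 0 in 32 genes.

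Within stages the mix of cells is narrower but not fixed. The preleptotene list summed to 878, 1501, 1040 and 1759 CPM in stage 6, and the pachytene list to 2124, 1401, 1955 and 1514 CPM in stage 8. None of the 27 to 35 genes tested passed the threshold in any of the 8 stages (edgeR, 0% of 7822 to 10064 genes called in each). Again far fewer genes than a share of 0.05, 14 to 56 per stage, had an unadjusted p under 0.05. DESeq2 called 0 of the 35 within stages. *Msh4* in stage 5 was the single gene of the 35 with an unadjusted p under 0.05 (edgeR, adjusted p = 1), with 2.12, 4.81, 8.78 and 13.3 CPM. Both *Sox17*-cKO libraries lay above both controls, by a log2 difference of 1.46 ± 0.61 (95% interval 0.04 to 2.87), on 40 UMIs in all. *Stra8*, at its peak in stage 6, was 1592, 1467, 1518 and 1405 CPM, with a difference of -0.10 ± 0.22 (-0.61 to 0.41). *Spo11* in stage 7 was 77.6, 93.5, 83.6 and 87.2 CPM, with -0.05 ± 0.23 (-0.61 to 0.51), and *Sycp3* in stage 8 4109, 4305, 4133 and 4779 CPM, with 0.07 ± 0.22 (-0.47 to 0.60). These peak levels overlapped between the genotypes. Both *Sox17*-cKO libraries lay above both controls for 0 of 27 genes in stage 1 (15.7% of all genes tested), 1 of 28 in stage 2 (13.1%), 1 of 30 in stage 3 (10.7%), 4 of 29 in stage 4 (9.85%), 5 of 31 in stage 5 (12.8%), 2 of 34 in stage 6 (12.9%), 1 of 35 in stage 7 (11.3%) and 3 of 30 in stage 8 (12.1%). Both lay below both controls for 2 genes in stage 2 (9.16% of all genes tested), 1 in stage 3 (7.73%), 3 in stage 4 (10.5%), 2 in stage 5 (8.94%) and 0 in stages 1, 6, 7 and 8 (7.07, 8.68, 6.65 and 8.73%). With stage as a block and all sums in 1 fit, 44 of 9179 genes were called (0.479%) and none of the 31 of these genes tested. This fit counts the 8 stage sums of a library as separate samples although they share that library, so its p-values can be too small. The lowest adjusted p was 0.348 for *Syce1* at a log2 difference of -0.21. A genotype difference that varied with stage was called for 1 of 11308 genes (0.00884%), which was not among the 35. Among the 27 other meiotic genes, 0 passed between genotypes in all germ-like cells, in single stages or with the stage block.

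The share of germ-like cells in each stage overlapped between genotypes in 7 of the 8 stages. In stage 3 it was 17.2% (exact binomial 95% interval 15.7 to 18.7) and 16.3% (14.3 to 18.5) in the controls, against 11.7% (10.4 to 13.2) and 13.6% (11.7 to 15.6) in the *Sox17*-cKO libraries. The *Sox17*-cKO mean was lower by 4.09 percentage points (exact permutation test, two-sided, p = 0.333), and 0.333 is the smallest p that 2 libraries against 2 can give. The intervals cover counting error only. The number of stages whose shares separated the genotypes was 0 without integration and 2 at resolution 0.8. In stage 1 the controls differed more between themselves, 15% and 3.56%, than the genotypes did.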

How the data were processed

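The authors deposited UMI count matrices per library, made with Cell Ranger 6.0.2 (replicate 1) or 6.1.2 (replicate 2) as the submitters' processing notes give it. The records name the v3 and the methods the v3.1 chemistry. Samples were grouped by the labels, and cells with 1000 to 4500 detected genes were kept; the study's mitochondrial limit was not applied. Cells were integrated and clustered with Seurat 5.3.0 (2000 variable genes, without the 35 genes; 20 components; resolution 0.4). Clusters were named from fixed marker lists by a score rule devised after the clusters were seen. Summed UMIs of each class in each library were tested with edgeR 4.0.16 (quasi-likelihood, TMM, Benjamini-Hochberg over all genes tested), with DESeq2 1.42.0 as an alternative. The stage fit used 32 sums with library as a term. Pseudotime was computed with Scanpy 1.11.5. Scrublet called 0, 208, 0 and 330 barcodes and did not work in 2 libraries, so doublets were kept. Fits were tested on simulated data. The members, marker lists and tests were chosen with earlier results of these data known. Values per library are given for the genes with the 5 largest called changes per step, though not for both stages of every such step. They are also given for the 3 smallest genotype p, the first and last gene of each role group and genes above 10% in Sertoli-like cells. Other values were chosen after they were seen. Of 31053 identifiers, 31011 were found in GENCODE vM21. The study describes its replicates as independent biological ones. Their litters and days are not given in the sources used here. The p-values of the main genotype tests measure the spread between these libraries. Those of the fits with library as a term measure the spread that is left once differences between libraries are taken out. The 32 stage sums come from only 4 libraries.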

Additional observations from a re-analysis of the deposited data

How the results depend on the processing

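The number of genes called stayed within 1.5 times the reported one at each step, between germ-like and Sertoli-like cells and between genotypes under the alternatives that could be run, except at step 3 without integration, where 0 were called and *Prdm9* had a log2 change of -0.30. Steps 4 to 7 could not be fitted without integration, steps 2 to 5 without the upper limit of genes, nor step 7 with the 35 genes kept in the clustering. Of the values of single genes, 405 kept direction and call, 7 lost the call and 2 reversed. The second reversal was *Rad21l* between genotypes, whose log2 difference was -0.11 when *Sox17*-cKO 1 was left out and 0.89 when control 2 was. Stages whose shares separated the genotypes numbered 1, but 0 without integration, 2 at resolution 0.8. With a library left out they numbered 2 to 8, which cannot be set beside the 1, since a single library lies apart from 2 others more easily than 2 from 2. Onset in stage 6 or later was found for 14 genes, for 5 at 10% and for 26 at 50% of the highest level, and for 13 with a library left out. The median half-maximum position was 70.0, against 32.5 at 20% of the highest bin, 77.5 with no upper limit and 68.3 to 71.7 with a library left out. With the replicate number as a block, 0 of the 35 genes were called between genotypes. Over all genes this block called 0 of 14119 in all germ-like cells and 0 to 23 per stage, the most in stage 4 (23 of 9026). Same-numbered libraries deviated together (correlation 0.584 over 14119 genes, across genes), but 2 pairs do not establish a pairing. The cause of these shifts was not tested. Depth limits the low genes, and 2 libraries per genotype limit the genotype comparison.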
